A study of Nothobranchius furzeri with 6 samples.

Results

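The miR-183 cluster was measured in the brain of Nothobranchius furzeri, the turquoise killifish, an annual fish studied for its short life, as the rows named nfu-mir-182, nfu-mir-183, nfu-mir-96 and nfu-mir-96a in a table of small RNA counts. The rows were taken by exact name, and all 4 were found among 324 rows, of which 235 carry a family name. The 6 libraries came from brains of males of strain MZM-04/10p at 39 weeks of age, and no treatment or genetic change is labelled. All libraries therefore form 1 group, and the data give levels, their spread, and comparisons of rows within libraries, but no contrast of age, sex or strain. The labels carry a separate code for each library and do not state that each is a separate animal. The p-values therefore hold for these libraries only and cannot be read as resting on a spread between animals.

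In vertebrates miR-183, miR-96 and miR-182 are typically made from a shared primary transcript and have closely related seeds, the bases that pair with target messages. The cluster is best known from sensory cells, among them photoreceptors, hair cells of the ear and olfactory neurons, and from the pineal gland. Loss of the cluster in the mouse disturbs photoreceptors and other sensory cells. A bulk library holds RNA of all cells that were dissected, and fewer cells of a type cannot be told apart from less RNA per cell.

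Total counts per library ranged from 11924483 to 16597229. Values are CPM, meaning counts relative to the library total (the CPM of all rows sum to 1000000 before scaling), adjusted with edgeR's TMM factors of 0.958 to 1.05, and log2 values are log2(CPM + 1). The detection floor of 3 counts lay between 0.173 and 0.256 CPM. Exact 95% binomial intervals and this floor cover counting error only, since no molecular identifiers mark reads copied from the same molecule. Neuronal families, the defining rows of brain, were all present: 5 of 5 listed rows together took 11.8% to 16.1% of counts.

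The 4 rows differed widely in level. Together they took 0.261% ± 0.0406 of all counts, or 2599 ± 356 CPM (SD, n = 6), and nearly all of this was mir-182. Row mir-182 was the 32nd row by mean level, mir-183 the 66th, mir-96a the 154th and mir-96 the 159th. All 4 rows lay above the detection floor in each of the 6 libraries.

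The most abundant row, mir-182, stood at 2693, 2087, 2287, 1792, 2316 and 2198 CPM in libraries 1 to 6. Library 1 was highest and library 4 lowest, a 1.50-fold range, and the other 4 libraries lay within 2087 to 2316 CPM. The mean was 2229 ± 296 CPM (SD, n = 6). Libraries 1 and 4 had the smallest totals, 11970136 and 11924483 counts, so the shallowest libraries held both ends of the range. The counts behind the values were 20999 to 39746. Counting error left library 1 between 2664 and 2722 CPM and library 4 between 1768 and 1817 CPM (exact intervals). The nearest rows in level were mir-187 above it, at 2450 ± 534 CPM, and mir-3596 below it, at 2163 ± 361 CPM.

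Its cluster partner mir-183 stood at 424.1, 333.6, 417.5, 266.6, 414.7 and 310.5 CPM in libraries 1 to 6. Libraries 1, 3 and 5 were close together at the top, library 4 was again lowest, and the highest library exceeded the lowest 1.59-fold. The mean was 361.2 ± 66.7 CPM (SD, n = 6), from 3124 to 7257 counts per library. Rows mir-716, at 362.2 ± 182 CPM, and mir-423, at 348.3 ± 57.5 CPM, were its neighbours in level.

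The third family of the cluster was counted in separate rows, mir-96 and mir-96a, and how these names relate is not given in the sources used here. Row mir-96, the family with the best known role in hearing, stood at 6.74, 4.48, 2.93, 2.99, 4.82 and 3.10 CPM in libraries 1 to 6, from 35 to 83 counts. Row mir-96a stood at 6.99, 6.72, 4.08, 4.10, 4.73 and 4.49 CPM, from 48 to 99 counts. Library 1 was highest for both rows, library 2 was next for mir-96a and library 5 for mir-96, and libraries 3, 4 and 6 were lowest for both. The means were 4.18 ± 1.50 CPM for mir-96 and 5.19 ± 1.32 CPM for mir-96a (SD, n = 6). Counting error alone was large here: for mir-96 the exact interval reached from 5.37 to 8.36 CPM in library 1, and in library 3 from 2.18 to 3.86 CPM. Rows mir-56 and pred_319, at 4.49 ± 1.21 and 4.13 ± 0.585 CPM, were the nearest to mir-96 in level. Rows mir-934 and mir-31, at 5.23 ± 0.978 and 5.04 ± 1.19 CPM, were the nearest to mir-96a.

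**Figure D1:**
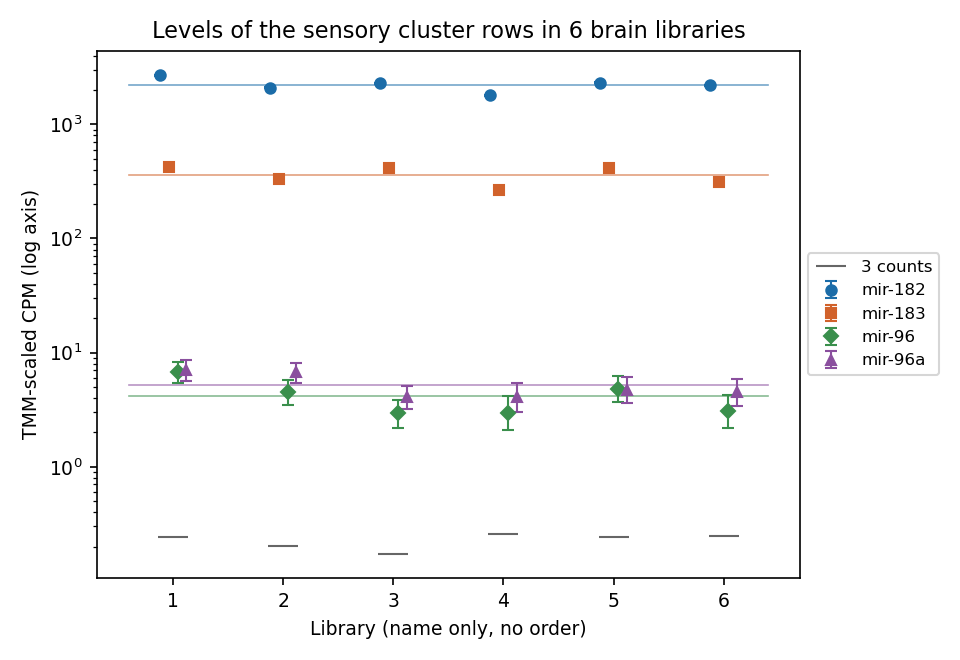
Level of each cluster row (TMM-scaled CPM, log axis) in libraries 1 to 6; points are single libraries with exact 95% binomial intervals, coloured lines are means over 6 libraries, and grey dashes mark 3 counts. Row mir-182 lies near 2229 CPM and mir-183 near 361.2 CPM, while mir-96 and mir-96a overlap near 4.18 and 5.19 CPM, above the floor in every library.

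The next question was how far apart the rows stood within a library, where scaling cancels. Row mir-182 exceeded mir-183 in 6 of 6 libraries, by a log2 ratio of 2.67, 2.65, 2.45, 2.75, 2.48 and 2.82 in libraries 1 to 6. The ratio was lowest in libraries 3 and 5 and highest in library 6. Its mean was 2.64 ± 0.15, or 6.22-fold, and the range was 5.48-fold to 7.08-fold. By an exact permutation test that flips the sign of each library's ratio (sign-flip test, two-sided), p was 0.031, which is the lower limit with 6 libraries. Adjusted over the 6 pairs of rows it was 0.0375. This spread of 0.15 in the ratio was smaller than the log2 SD of mir-182 alone, 0.19, and of mir-183 alone, 0.28.

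The distance to the third family was far larger. Row mir-183 exceeded mir-96 by a log2 ratio of 6.47 ± 0.40 and mir-96a by 6.13 ± 0.37, while mir-182 exceeded them by 9.11 ± 0.37 and 8.76 ± 0.30. Each of these 4 ratios held its direction in 6 of 6 libraries, with p = 0.031 in the exact sign-flip permutation test and an adjusted p of 0.0375. The rows mir-96 and mir-96a were also summed, a choice made after seeing the data because rows of the same family may share reads. Against this sum, mir-182 was 243.0-fold and mir-183 39.1-fold higher (exact permutation p = 0.031 for each, in 6 of 6 libraries). The summed rows stood at 9.36 ± 2.70 CPM (SD, n = 6). The kit ligates adaptors to RNA ends, which depends on sequence, and the counting rule for reads that match several rows is not known; the part of both in these ratios was not tested.

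The lowest step of the order was not separated. Row mir-96a was above mir-96 in 5 of 6 libraries, and the log2 ratio of mir-96 to mir-96a was -0.34 ± 0.26, with p = 0.0625 and an adjusted p of 0.0625 in the exact sign-flip permutation test. Of the counts in these rows together, mir-96 held 49.1%, 40.0%, 41.8%, 42.2%, 50.4% and 40.9% in libraries 1 to 6. Libraries 1 and 5 were near an even split, and the exact 95% intervals of all 6 libraries overlapped, from 31.4% to 53.5% in library 4, which held 83 such counts, to 41.4% to 56.9% in library 1, which held 169.

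As a share of the 4 rows, mir-182 held 85.8% ± 1.20, mir-183 13.8% ± 1.21, mir-96a 0.200% ± 0.0448 and mir-96 0.159% ± 0.0404 (SD, n = 6). The mir-182 share was lowest in library 3, at 84.3% with an exact interval of 84.0% to 84.7%, and highest in library 6, at 87.4% with an interval of 87.0% to 87.7%. These are the extremes of 6 libraries, and the intervals cover counting error only. Both mir-96 rows together made up 0.259% to 0.461% of the cluster.

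**Figure D2:**
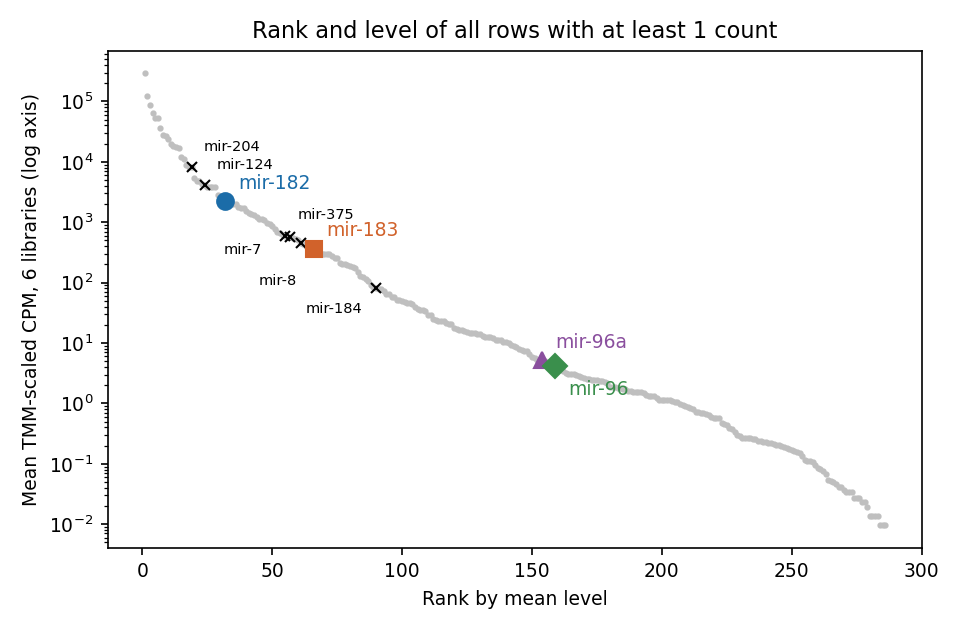
Mean level of every row with at least 1 count (TMM-scaled CPM over 6 libraries, log axis) against its rank; coloured symbols are the cluster rows and crosses the reference rows of eye, choroid plexus, neurons, endocrine tissue and epithelium. Row mir-182 ranks 32nd and mir-183 66th, whereas mir-96a and mir-96 rank 154th and 159th.

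The spread between libraries was then compared with that of rows of like abundance. Of 214 rows with a mean of at least 10 counts, edgeR's goodness-of-fit test at the trended dispersion called 3.74% as variable at an adjusted p under 0.05, and none of the 4 cluster rows was among them. The unadjusted p was 0.977 for mir-182, 0.938 for mir-183, 0.856 for mir-96a and 0.585 for mir-96, with an adjusted p of 0.9999 for each by this edgeR test. None of the 4 reached an unadjusted p under 0.05, which 8.41% of rows did, and none was among the 1.4% of rows that DESeq2 marked as dispersion outliers. Against counting error alone, by a Poisson index of dispersion, all 4 rows were called, as were 82.7% of rows.

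The log2 SD over libraries was 0.19 for mir-182, 0.28 for mir-183, 0.29 for mir-96a and 0.39 for mir-96, against a median of 0.27 over the 214 rows. Of all rows tested, 31.3% had a lower log2 SD than mir-182, 51.4% than mir-183, 57.5% than mir-96a and 75.7% than mir-96. The order of spread was thus the reverse of the order of level, and the exact interval of mir-96 spanned 22.2% to 34.7% of its value on either side. The biological coefficient of variation, edgeR's tagwise estimate shrunk toward the trend, was 0.222 for mir-182, 0.269 for mir-183, 0.278 for mir-96a and 0.334 for mir-96. All 4 lay below the trend, as did 176 of the 214 rows.

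**Figure D3:**
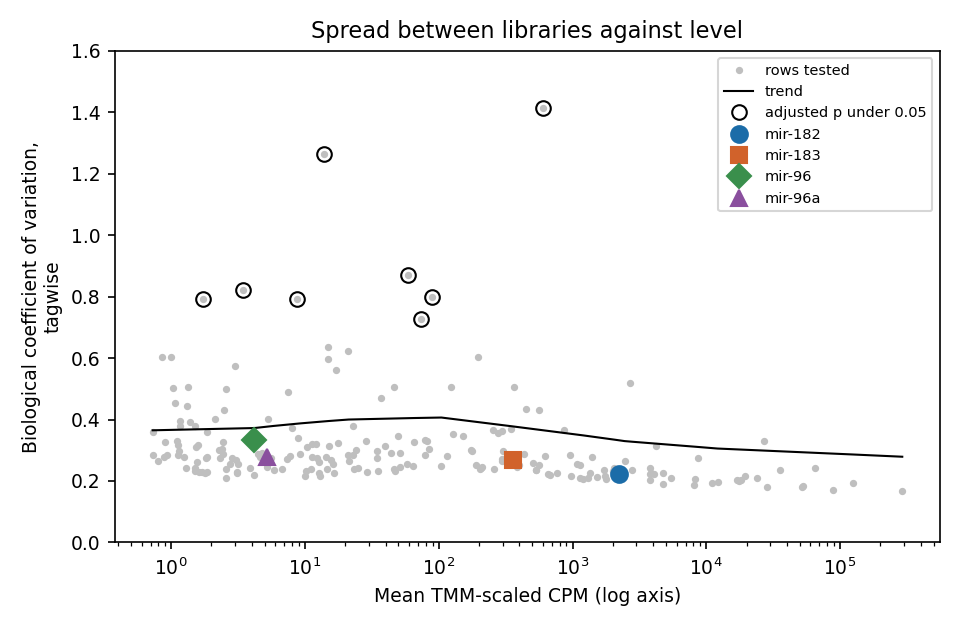
Biological coefficient of variation (edgeR tagwise estimate) against mean level (TMM-scaled CPM, log axis) for 214 rows; the line is the abundance trend and open circles mark rows with an adjusted p under 0.05 in edgeR's test. The cluster rows, at 0.222 to 0.334, sit below the trend among most other rows.

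Whether the rows moved together over the 6 libraries is the question their shared locus in other vertebrates raises. The result for mir-182 with mir-183 was known from earlier work on these data. Over the 6 pairs of cluster rows, Pearson's r of log2 values was 0.87 for mir-182 with mir-183 (exact permutation p = 0.0125, adjusted p = 0.0750 over 6 pairs). Spearman's rho was 0.89 (exact p = 0.0333, adjusted p = 0.100). Without libraries 1 and 4, the farthest from the median of mir-182, r was 0.78 (n = 4). Library 1 was above the mean for both rows by 0.28 and 0.25 log2 units, and library 4 below it by 0.30 and 0.41 units.

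The rows mir-96 and mir-96a also ran together, with r = 0.85 (exact permutation p = 0.0264, adjusted p = 0.0792). For this pair rho was 0.94 (exact p = 0.0167, adjusted p = 0.100). Without libraries 1 and 5, r was 0.997 over only 4 libraries, but without library 1 alone it was 0.71. Over all single libraries left out, r ranged from 0.71 to 0.93. Reads shared between these rows would move them together, and this was not tested. No pair passed after adjustment over the 6 pairs. This call depended on the processing: both pairs passed with plain CPM (r = 0.90 and 0.86, adjusted p = 0.0333 for each by the exact permutation test). With mir-96 and mir-96a summed, which leaves 3 pairs to adjust over, mir-182 with mir-183 passed with the same r (exact permutation, adjusted p = 0.0375). Spearman's rho did not pass in this setting (exact permutation, adjusted p = 0.100), which was chosen after seeing the data. Without library 4 alone, r of mir-182 with mir-183 was 0.70 (exact permutation p = 0.167, adjusted p = 0.433 over 6 pairs).

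For the 4 pairs that join mir-182 or mir-183 with a mir-96 row, r was lower over the 6 libraries. The difference between correlations was not tested. The mir-96 rows had 35 to 99 counts per library, so counting error was larger in them than in mir-182 and mir-183. The part of counting error in these lower r was not tested. Row mir-182 had r = 0.71 with mir-96 (exact permutation p = 0.121, adjusted p = 0.242) and 0.50 with mir-96a (exact p = 0.364, adjusted p = 0.437), and rho was 0.60 (exact p = 0.242, adjusted p = 0.483) and 0.43 (exact p = 0.419, adjusted p = 0.497). Without libraries 1 and 4 these r fell to -0.16 and -0.84 (n = 4), a step that takes out both ends of the mir-182 range. Without library 1 alone they were 0.33 and 0.061, and without library 4 alone 0.67 and 0.31. The positive values thus depend on these libraries, and more on library 1. Row mir-183 had r = 0.56 with mir-96 (exact permutation p = 0.225, adjusted p = 0.338) and 0.30 with mir-96a (exact p = 0.458, adjusted p = 0.458), and rho was 0.43 (exact p = 0.419, adjusted p = 0.497) and 0.37 (exact p = 0.497, adjusted p = 0.497). Without libraries 4 and 6, r fell to 0.09 and -0.45 (n = 4). With library 1 alone left out, r was 0.38 with mir-96 and 0.015 with mir-96a. It was 0.42 and -0.0095 without library 4 alone, and 0.50 and 0.24 without library 6 alone. The positive values thus do not rest on libraries 4 and 6 only. Leaving out library 3 alone moved r of mir-183 with mir-96 the other way, to 0.90 (exact permutation p = 0.0417, adjusted p = 0.125, n = 5), and without single libraries this r ranged from 0.38 to 0.90. Library 3 shows the difference: mir-183 was 0.23 log2 units above its mean there, while mir-96 was 0.35 and mir-96a 0.26 units below theirs.

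**Figure D4:**
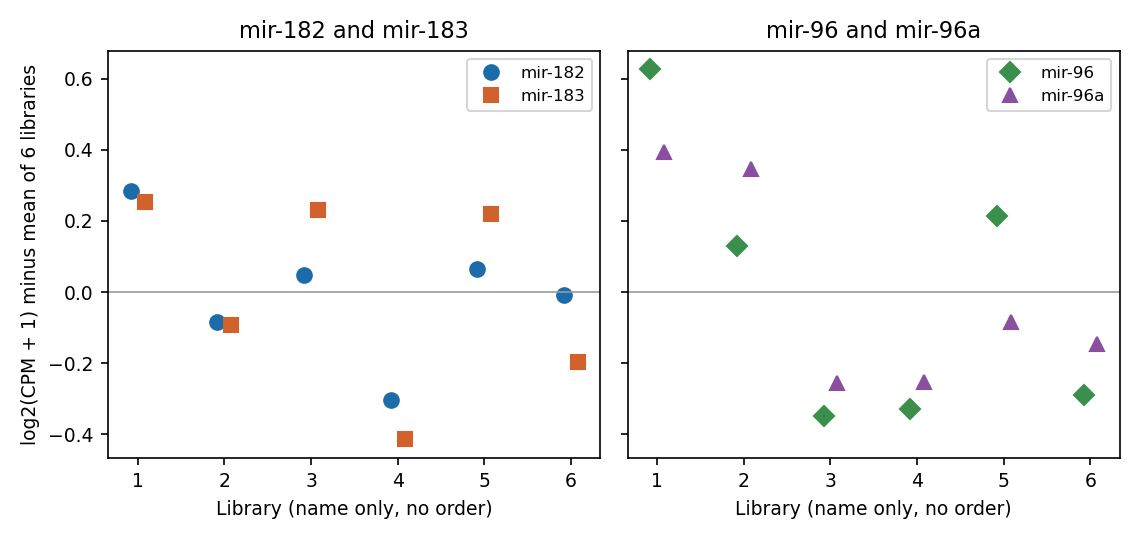
Log2(CPM + 1) of each cluster row minus its mean over 6 libraries, with mir-182 and mir-183 on the left and mir-96 and mir-96a on the right; each point is 1 library. Library 1 is above the mean for all 4 rows and library 4 below it, whereas library 3 is above the mean for mir-182 and mir-183 and below it for mir-96 and mir-96a.

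The rows whose pattern was most like each cluster row were named by Pearson's r of log2 values over the 6 libraries among 213 other rows, as a description of likeness with no test. For mir-182 they were mir-642 (r = 0.88), mir-183 (0.87), pred_368 (0.85), mir-551 (0.84) and mir-181 (0.84). For mir-183 they were mir-145 (0.98), mir-181 (0.97), pred_278 (0.95), mir-299 (0.94) and mir-1338 (0.91). Its partner mir-182 came 9th. Over all 213 rows the median r was -0.05 with mir-182 and -0.03 with mir-183.

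The row most like mir-183, mir-145, stood at 323.3, 223.5, 375.1, 151.0, 360.6 and 226.3 CPM in libraries 1 to 6. It was high in libraries 1, 3 and 5 and lowest in library 4, as was mir-183. The most abundant row of the brain, mir-181, stood at 298701, 288848, 298906, 274077, 304082 and 286872 CPM and had the same 3 libraries at the top. Because mir-181 takes a large part of each total, its r with mir-183 was also taken under other scalings. It was 0.99 with DESeq2 size factors, 0.97 with plain CPM and 0.98 with mir-181 left out of the totals. The last scaling raises every row most where mir-181 takes the largest part of the total, so it is no independent check of this r.

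For mir-96 the most similar rows were mir-96a (0.85), mir-216 (0.84), mir-194 (0.81), mir-223 (0.79) and pred_717 (0.71). For mir-96a they were mir-223 (0.91), mir-96 (0.85), mir-194 (0.83), mir-217 (0.81) and mir-216 (0.81). The family mir-223 is known from myeloid blood cells, mir-194 from gut and liver, and mir-216 and mir-217 from pancreas. These rows were picked for likeness, and a source of the pattern was not tested. Other rows known from liver differed. Row mir-192 had its highest count in library 1, at 3287. It was called variable by edgeR's goodness-of-fit test (adjusted p = 0.00046), as were 3.74% of all rows. Row mir-122 had 112 to 168 counts and varied no more than counting error, with a Poisson statistic per degree of freedom of 0.835. The endocrine row mir-375, which pancreatic islets also express, had another pattern. It stood at 7.56 CPM in library 1 and 1574 CPM in library 2, where mir-216 stood at 1609 and 1411 CPM. Further rows of myeloid cells and pancreas were not compared. Row mir-223 was highest in library 1, at 44.0 CPM, and library 2, at 35.2 CPM, and ranged from 21.5 to 25.7 CPM elsewhere. Libraries 1 and 2 were also the highest for mir-96a. In the order of likeness to mir-96, mir-182 came 6th and mir-183 18th. For mir-96a they came 32nd and 61st. In the order of likeness to mir-182, mir-96 came 14th and mir-96a 32nd, and for mir-183 they came 31st and 70th.

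The cluster was last set beside rows known from tissues that share its sites of expression or lie next to the brain. The sensory, retina and pineal list had 6 of its 8 names as rows, the cluster's 4 with mir-204 and mir-184, and held 0.968% to 1.22% of counts. Of the mean share of 1.08%, mir-204 alone held 0.815%, so this share does not measure sensory cells. The results below repeat those of the cluster's own 4 rows and add only mir-204 and mir-184. None of the 6 was called variable by edgeR's test (3.74% of all rows were), none had an unadjusted p under 0.05 and none was a DESeq2 dispersion outlier. Their median log2 SD was 0.29. Row mir-204, abundant in retinal pigment epithelium and choroid plexus and also the only row of the choroid plexus list, stood at 8136 ± 396 CPM and varied little, with a log2 SD of 0.07. Row mir-184, known from the lens and cornea, stood at 81.1 ± 24.0 CPM (SD, n = 6).

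The summed cluster lay below mir-204 in 6 of 6 libraries, by a log2 ratio of -1.66 ± 0.17, and below the neuronal row mir-124, which the retina also expresses, by -0.64 ± 0.19. It lay above mir-184 by 5.04 ± 0.39, above the endocrine rows mir-7 by 2.33 ± 0.84 and mir-375 by 4.50 ± 3.88, and above mir-8, the family name that also covers miR-200 and is known from epithelium and olfactory tissue, by 2.65 ± 0.85. Each direction held in 6 of 6 libraries. In the exact sign-flip permutation test (two-sided), p was 0.031 for each row and stayed at 0.031 when adjusted over the 6 rows, because every row reached the lower limit. Adaptor ligation, which depends on sequence, and the unknown counting rule may shift a ratio alike in every library. The test does not separate such a shift from a difference in level, and their part in these ratios was not tested. The order against mir-7, mir-375 and mir-8 rested on mir-182. Without it the log2 ratio to mir-375 was 1.68 and no longer passed (exact permutation p = 0.344, adjusted p = 0.413), and the log2 ratio was -0.49 against mir-7 (exact permutation p = 0.281, adjusted p = 0.413) and -0.17 against mir-8 (exact permutation p = 0.719, adjusted p = 0.719).

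None of the 6 reference rows followed the cluster sum past the threshold. Pearson's r was 0.58 with mir-204 (exact permutation p = 0.201, adjusted p = 0.323), 0.32 with mir-184 (exact p = 0.553, adjusted p = 0.553) and 0.59 with mir-124 (exact p = 0.215, adjusted p = 0.323). It was -0.61 with mir-7 (exact permutation p = 0.193, adjusted p = 0.323), -0.54 with mir-375 (exact p = 0.307, adjusted p = 0.368) and -0.68 with mir-8 (exact p = 0.132, adjusted p = 0.323). Spearman's rho ranged from -0.49 for mir-7 and mir-8 to 0.77 for mir-204, with no exact permutation p under 0.103 and no adjusted p under 0.533. Without libraries 1 and 4, r was 0.78 with mir-204, 0.34 with mir-184, -0.09 with mir-124, 0.22 with mir-7, -0.01 with mir-375 and -0.05 with mir-8. Without library 4 alone, r fell to 0.33 with mir-204 and 0.24 with mir-124. The positive value with mir-124 and the negative values with mir-7, mir-375 and mir-8 thus depend on libraries 1 and 4 together. Each kept its sign when only library 1 or only library 4 was left out. In libraries 1 and 4 the cluster and mir-8 stood opposite: library 1 was 0.28 log2 units above the mean for the cluster and 0.73 below it for mir-8, and library 4 was 0.32 below it for the cluster and 0.83 above it for mir-8. Under plain CPM, r with mir-8 was -0.81 (exact permutation p = 0.0417, adjusted p = 0.217). With mir-181 left out of the totals, it was -0.82 (exact p = 0.0458, adjusted p = 0.161). Row mir-204 then had r = 0.80 (exact p = 0.0569, adjusted p = 0.161). No row passed after adjustment with either scaling. With mir-182 left out of the sum none passed either, and r was 0.59 with mir-184 and -0.26 with mir-375.

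Lists of other tissues were present beside the cluster in each library. Pituitary and endocrine rows, 2 of 2 names, held 0.0259% to 0.195% of counts, and 1 of them, mir-375, was called variable by edgeR's test. Olfactory and other epithelial rows, 4 of 6 names with mir-200 at 0 in every library, held 0.0440% to 0.0867%, against 0.203% to 0.322% for the cluster. Red blood cell rows held 0.0186% to 0.0643% and muscle rows 0.0763% to 0.131%, with 2 of 2 and 3 of 3 names present. Of the mean muscle share of 0.111%, mir-133 alone held 0.108%, while mir-1 held 0.00231% and mir-499 0.000304%. Choroid plexus mir-204 held 0.759% to 0.924%. Of all 214 rows tested, edgeR's test called 3.74% and DESeq2 marked 1.4%. No row of the neuronal, choroid plexus, epithelial, red blood cell or muscle lists was called variable by edgeR's test or by DESeq2. At an unadjusted p under 0.05, which 8.41% of all rows reached, there were 2, mir-205 of the epithelial and mir-499 of the muscle list. The part of these tissues in the level of the cluster was not tested.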

How the data were processed

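Small RNA of 6 brain libraries was sequenced from total RNA with Illumina's TruSeq small RNA kit, per the labels. The authors deposited whole-number raw counts per miRNA family or predicted feature. SAMtools 1.3.1-9, BWA 0.7.12-r1039, Trimmomatic 0.36 and bcl2fastq 1.8.4 are named in the submitters' processing notes, with no role. Not given in the sources used here are the genome build, the miRNA annotation, the number of mismatches tolerated, and how reads with several matches were counted. Arms are not split, and no coordinates are in the table.

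Libraries are numbered 1 to 6 by accession order, as names only. Counts were scaled by TMM in edgeR 4.0.16 (R 4.3.3). Variation was tested on all 214 rows with a mean of at least 10 counts, by an intercept-only negative binomial fit at the trended dispersion, with goodness-of-fit p-values adjusted by Benjamini-Hochberg and a threshold of 0.05. DESeq2 1.42.0 gave an alternative. Ratios had 0.5 added to each count. Sign-flip tests and correlations (720 pairings) were exact, enumerated with NumPy 2.4.6. The tests were checked on simulated data. For the sign-flip and correlation tests these were normally distributed values with no effect or a strong effect, so weaker effects were not covered. For edgeR's test the simulated counts were drawn at the trended dispersion, which lies above the tagwise value of 176 of the 214 rows. The check therefore does not show how that test behaves for such rows. Named rows were the cluster, the 6 reference rows, the marker lists, the 5 rows most like each cluster row and its neighbours in level. The member rows and lists were chosen with earlier results of these data known.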

Additional observations from a re-analysis of the deposited data

How the results depend on the processing

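No paired comparison of groups was possible because all libraries belong to 1 group. With mir-181 left out of the totals, which raises every CPM by construction, the levels became 3165 (mir-182), 514.3 (mir-183), 5.95 (mir-96) and 7.37 CPM (mir-96a). Neither plain CPM nor DESeq2 size factors moved a level by 1 SD. Their average library size equals that of the TMM scaling by construction, so the means could hardly move. Without single libraries the means ranged from 2136 to 2316, 348.6 to 380.1, 3.66 to 4.43 and 4.83 to 5.41 CPM. Rows called variable numbered 8 by edgeR, 177 by the Poisson index, 3 as DESeq2 outliers and 6 to 9 without single libraries. The Poisson statistic per degree of freedom was 478.8 for mir-182, 156.5 for mir-183, 7.03 for mir-96 and 4.57 for mir-96a, all called; edgeR's test called no cluster row without the filter, with DESeq2 size factors or without any single library.

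Under plain CPM, mir-182 with mir-183 passed with r = 0.90 (exact permutation, adjusted p = 0.0333), as did mir-96 with mir-96a (r = 0.86, adjusted p = 0.0333). With mir-181 left out of the totals they passed with r = 0.93 (exact permutation, adjusted p = 0.0250) and 0.87 (adjusted p = 0.0292). That scaling raises every row most in libraries where mir-181 takes the largest part of the total. The cause of these passes was not tested. With mir-96 and mir-96a summed, mir-182 with mir-183 passed at an unchanged r = 0.87 (exact permutation, adjusted p = 0.0375), because fewer pairs were adjusted over. Spearman's rho did not pass there (exact permutation, adjusted p = 0.100). Without single libraries, r of mir-182 with mir-183 ranged from 0.70 to 0.92, that of mir-183 with mir-96a from -0.0095 (library 4 left out) to 0.58, and that of the cluster sum with mir-184 from -0.17 (library 4 left out) to 0.65. With mir-182 left out of the sum, the log2 ratio became -4.48 against mir-204, 2.22 against mir-184 and -3.47 against mir-124 (exact permutation p = 0.031, adjusted p = 0.0625 for each), 1.68 against mir-375 (adjusted p = 0.413), and reversed to -0.49 against mir-7 and -0.17 against mir-8. The raw p of the first 3 was the smallest possible, so their adjusted p rose because fewer rows reached it. Ratios between cluster rows with 1 or 5 added to each count, and ratios to reference rows with 5 added, kept direction and side of the threshold; medians of the former, which have no test, kept direction. Depth is lowest for the mir-96 rows, at 35 to 99 counts.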
